A study of Saccharomyces cerevisiae with 24 samples.

Results

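The 43 genes described here encode proteins that build the ribosome in yeast: the UTP, NOP, RRP and NOC genes of the small and large subunit, together with *DHR2* and *DBP2*, which encode RNA helicases. They were chosen by gene symbol, as the platform annotation of the arrays gives it, and each was measured by 1 probe printed as 2 spots, so that they make up 43 of 6388 gene probes (5315 distinct gene names). The rule itself used no measured value, but the members were listed with earlier results of these data known. Ribosomes are assembled in the nucleolus around a long precursor of the ribosomal RNAs. snoRNP proteins and the UtpA, UtpB and UtpC complexes gather on the growing precursor to form the small-subunit processome, other factors fold and cut the precursor, and a further set assembles the large subunit. The mRNAs of these factors are known as a regulon that growing yeast cells keep high and stressed cells turn down, at the time when general stress genes are turned up.

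Total RNA of *Saccharomyces cerevisiae* BY4742 strains was compared with a common reference pool on 24 dual-channel microarrays. The strains differ in the number of heptapeptide repeats in the C-terminal domain (CTD) of Rpb1, the largest subunit of RNA polymerase II (RNAPII), which is encoded by *RPO21*. The truncation mutants keep 11 repeats in *rpb1-CTD11*, 12 in *rpb1-CTD12*, 13 in *rpb1-CTD13* and 20 in *rpb1-CTD20*, through a stop codon and a NAT resistance marker placed at the *RPB1* locus, and *RPB1-CTDWT* carries the same marker behind the full CTD, which its label counts as 26 repeats. In *rpb1-CTD11 cdk8Δ* and in *rpb1-CTD12 cdk8Δ*, the double mutants, a truncation is joined by loss of *CDK8*, the kinase gene of the Mediator complex, listed on the arrays as *SSN3*. The controls used here were a wild type labelled with shaking at 330 rpm (wild type 330 rpm), which the study's own table of strains pairs with the double mutants, and wild type, for the others. The study's methods also name *RPB1-CTDWT* as its control in expression profiling. The growth protocol gives 1 shaking speed for every culture, below 330 rpm, so whether shaking differed cannot be told from the sources, and no *cdk8Δ* strain with a full CTD was among the arrays. All cultures grew in synthetic complete medium with glucose and were collected at mid-log phase. Wild type had 8 arrays and every other group 2, a and b, which the deposit describes as independent cultures. The wild type arrays are labelled k1 (4 arrays), k2 and k3 (2 each), and what these labels stand for is not given, so that some of the 8 may share a culture. The sample carried Cy3 on a arrays and Cy5 on b arrays.

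Values are log2 ratios of a sample to the common reference, with the dye effect removed, and a change is the difference of 2 groups on this scale with its standard error (SE). A gene passed the test at an adjusted p under 0.01 (limma, Benjamini-Hochberg over all gene probes), and was called where the fold change was also over 1.7. All 43 members were above background on all 24 arrays. *SSN3* was above background on all arrays of the strains that keep it and on none of the 4 arrays of the double mutants. *RPO21* mRNA changed by -1.32, -1.34 and -1.57 with 11, 12 and 13 repeats, by -0.34 with 20, which did not pass, and by -0.97 in *RPB1-CTDWT*, each against wild type. The α-specific mating genes (*STE3*, *SAG1*, *MF(ALPHA)1* and *MF(ALPHA)2*) and the **a**-specific ones (*STE2*, *BAR1*, *AGA2*, *MFA1* and *STE6*) were each above background on 23 or 24 arrays, so the mating type on the labels could not be checked this way.

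The arrays of the *rpb1-CTD11* strain differed from each other more than those of any other pair. The median of the 43 members was -0.46 on its a array and -0.14 on its b array, and every one of the 43 was lower on the a array. In the other groups of 2 arrays the medians of a and b lay 0.00497 to 0.0728 apart, against 0.324 here. The difference was not limited to the members: the standard deviation of the difference between a and b over all gene probes was 0.184 in *rpb1-CTD11* and 0.0719 to 0.131 in the other groups. General stress genes, a list of 27 targets of Msn2 and Msn4, had a median of 0.93 on the a array and 0.04 on the b array. What part the stress genes or the difference between the cultures had in the results below was not tested. The comparisons of *rpb1-CTD11* with wild type, with *rpb1-CTD12* and with *rpb1-CTD11 cdk8Δ* are therefore given with and without its a array. Results of this strain with other scalings, with other controls or without the dye term are given only with both arrays.

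**Figure D1:**
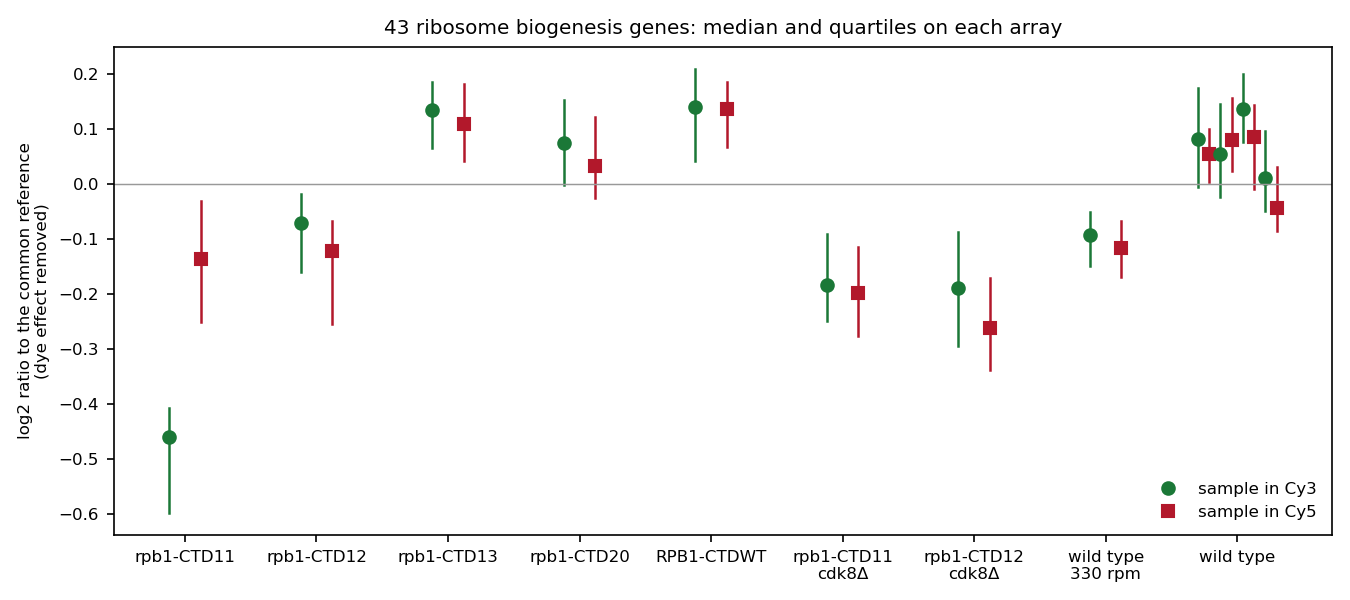
Log2 ratio to the common reference, with the dye effect removed, as the median (symbol) and quartiles (bar) of the 43 members on each of the 24 arrays, by group and dye. The a array of rpb1-CTD11 lies at -0.46 and its b array at -0.14, while the 8 wild type arrays lie between -0.04 and 0.14.

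Ribosome biogenesis mRNAs fell in the strain with 11 repeats. Of the 43 members, 37 were lower and none was higher in *rpb1-CTD11* than in wild type, where 24.9% of all gene probes were lower and 24.3% higher. All 43 changes were negative, from -1.04 to -0.12 with a median of -0.38, while the median over all gene probes was 0.00. In 28 members both *rpb1-CTD11* arrays lay below all 8 wild type arrays, as was so for 27.1% of all gene probes. The changes were small: *DBP2* and *DHR2* passed the fold change threshold, as did 1.49% of all gene probes on the lower side. Without the a array, 17 members were lower, with a median of -0.19 (16.5% of all gene probes lower), and without the b array 42 were lower, with a median of -0.57 (22.2% of all gene probes lower). Fitted without the dye term, the arrays gave 16 members lower, with a median of -0.38, and no share of all gene probes is given for that fit. Scaled on the spiked-in controls, spots for external RNAs, the arrays gave 2, with a median of -0.46 (1.71% of all gene probes lower).

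*DBP2*, which encodes a DEAD-box RNA helicase that also acts on mRNA, had the largest change of the members. It measured -1.04 and -0.23 on the *rpb1-CTD11* arrays, against a lowest, median and highest value of 0.22, 0.39 and 0.64 on the wild type arrays. Both mutant arrays were below every wild type array, although they differed from each other by more than the whole range of wild type, and the fitted change was -1.04 (SE 0.134, adjusted p = 2.64e-06 in limma), or 2.05-fold lower. The change was -0.60 without the a array. *DHR2*, whose product is a DEAH-box RNA helicase of the small-subunit processome, measured -1.003 and -0.55 in *rpb1-CTD11*, against -0.10, 0.04 and 0.11 as the lowest, median and highest wild type value. Its groups did not overlap either, and its change was -0.79 (SE 0.0859, adjusted p = 3.11e-07 in limma), or -0.54 without the a array.

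*NOC2*, a factor that escorts the precursor of the large subunit, and *UTP8*, a UtpA subunit, came next. *NOC2* measured -0.57 and -0.22 in *rpb1-CTD11*, against 0.10, 0.19 and 0.28 (lowest, median, highest) in wild type, and changed by -0.59 (SE 0.0674, adjusted p = 5.79e-07 in limma). *UTP8* measured -0.71 and -0.42 in *rpb1-CTD11*, against -0.09, 0.01 and 0.12 in wild type, and changed by -0.58 (SE 0.0549, adjusted p = 5.19e-08 in limma). Neither overlapped with wild type on any array, and without the a array they changed by -0.40 and -0.42.

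Members of every role fell. Among the 4 snoRNP proteins, which carry the guide RNAs for rRNA modification and the U3 RNA of the processome, *RRP9* (-0.51), *NOP56* (-0.49) and *NOP58* (-0.33) fell. *RRP9*, whose product binds U3, measured -0.46 and -0.31 in *rpb1-CTD11*, against 0.08, 0.12 and 0.20 (lowest, median, highest) in wild type, with no overlap. *NOP1*, which encodes the methyltransferase fibrillarin, measured -0.35 and -0.01, against -0.15, 0.07 and 0.17 in wild type, and its change of -0.21 did not pass (adjusted p = 0.0347 in limma). Its b array lay within the range of wild type.

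The UTP complexes of the processome moved in the same direction with unequal sizes. Of the 6 members that encode subunits of UtpA, the first to bind the nascent precursor, 5 fell: *UTP8*, *UTP9* (-0.55), *UTP15* (-0.49), *UTP10* (-0.49) and *UTP4* (-0.48). *UTP5*, the remaining one of these 6 members, measured -0.40 and 0.07 in *rpb1-CTD11*, against -0.05, 0.08 and 0.28 in wild type, and did not pass (-0.24, adjusted p = 0.0436 in limma). *UTP9* measured -0.53 and -0.40, against 0.03, 0.09 and 0.15, and had the smallest adjusted p of the 43 members, 6.81e-10 in limma. Thus 1 of these 6 members overlapped with wild type on its b array while the 5 others lay below wild type on both arrays.

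In UtpB, *UTP13* (-0.53), *UTP21* (-0.39) and *UTP6* (-0.38) fell. *UTP13* measured -0.68 and -0.26 in *rpb1-CTD11*, against -0.02, 0.05 and 0.13 in wild type, with no overlap. *UTP18* measured -0.17 and -0.01, against -0.08, 0.08 and 0.18, and did not pass (-0.16). UtpC, which is shared with a complex that binds a regulator of ribosomal protein genes, is represented by *UTP22* and *RRP7*, and both fell. *UTP22* measured -0.31 and -0.12, against 0.03, 0.16 and 0.24 in wild type (change -0.37), and *RRP7* measured -0.24 and -0.12, against -0.07, -0.01 and 0.08 (change -0.17). Neither overlapped with wild type.

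Of the 10 other small-subunit factors, 8 fell, from *DHR2* to *NOC4* at -0.22. Between them lay *UTP7* (-0.40), *NOP9* (-0.38), *UTP20* (-0.36), *UTP11* (-0.35), *UTP14* (-0.32), which activates a processome helicase, and *UTP23* (-0.29). *NOP14*, the partner of *NOC4*, had -0.19 and did not pass (adjusted p = 0.0418 in limma). The DEAD-box helicase gene *RRP3* had the smallest change of all 43, -0.12, with -0.25 and -0.03 in *rpb1-CTD11*, against -0.13, 0.01 and 0.03 in wild type. It did not pass, and its b array lay within wild type.

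All 3 factors needed for both subunits fell: *RRP12*, which serves in export of the subunits (-0.54), *RRP5* (-0.43) and *RRP14* (-0.36). *RRP12* measured -0.62 and -0.05 in *rpb1-CTD11*, against -0.003, 0.24 and 0.33 in wild type, so that its b array lay just below the lowest wild type array. *RRP14* measured -0.55 and -0.32, against -0.18, -0.06 and -0.03, with a clear gap. Of the 14 large-subunit factors, 13 fell, and *NOP2*, an rRNA methyltransferase gene, had -0.28 with an adjusted p of 0.0131 in limma. *DBP2* and *NOC2* led, followed by the methyltransferase gene *RRP8* (-0.53), *NOP4* and *NOP53* (both -0.51), *RRP1* (-0.46) and *NOC3* (-0.42), the partner of *NOC2*. Smaller falls were seen in *NOP12* (-0.35), *NOP8* (-0.35), *NOP16* (-0.29), *NOP7* (-0.29) and *NOP15* (-0.27). *RRP15* fell least, by 0.18, with -0.33 and -0.04 in *rpb1-CTD11*, against -0.08, 0.01 and 0.06 in wild type, and its b array overlapped.

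The members that fell also without the a array of *rpb1-CTD11* were *DBP2*, *NOC2*, *RRP8*, *NOP4*, *NOP53* and *RRP1* of the 14 large-subunit factors, *UTP8*, *UTP9*, *UTP10* and *UTP15* of the 6 UtpA subunits, *RRP9* and *NOP56* of the 4 snoRNP proteins, *DHR2* and *UTP7* of the 10 other small-subunit factors, and *UTP13*, *UTP22* and *RRP14*. The median of each role was then between -0.34 (UtpA) and -0.13 (other small-subunit factors).

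**Figure D2:**
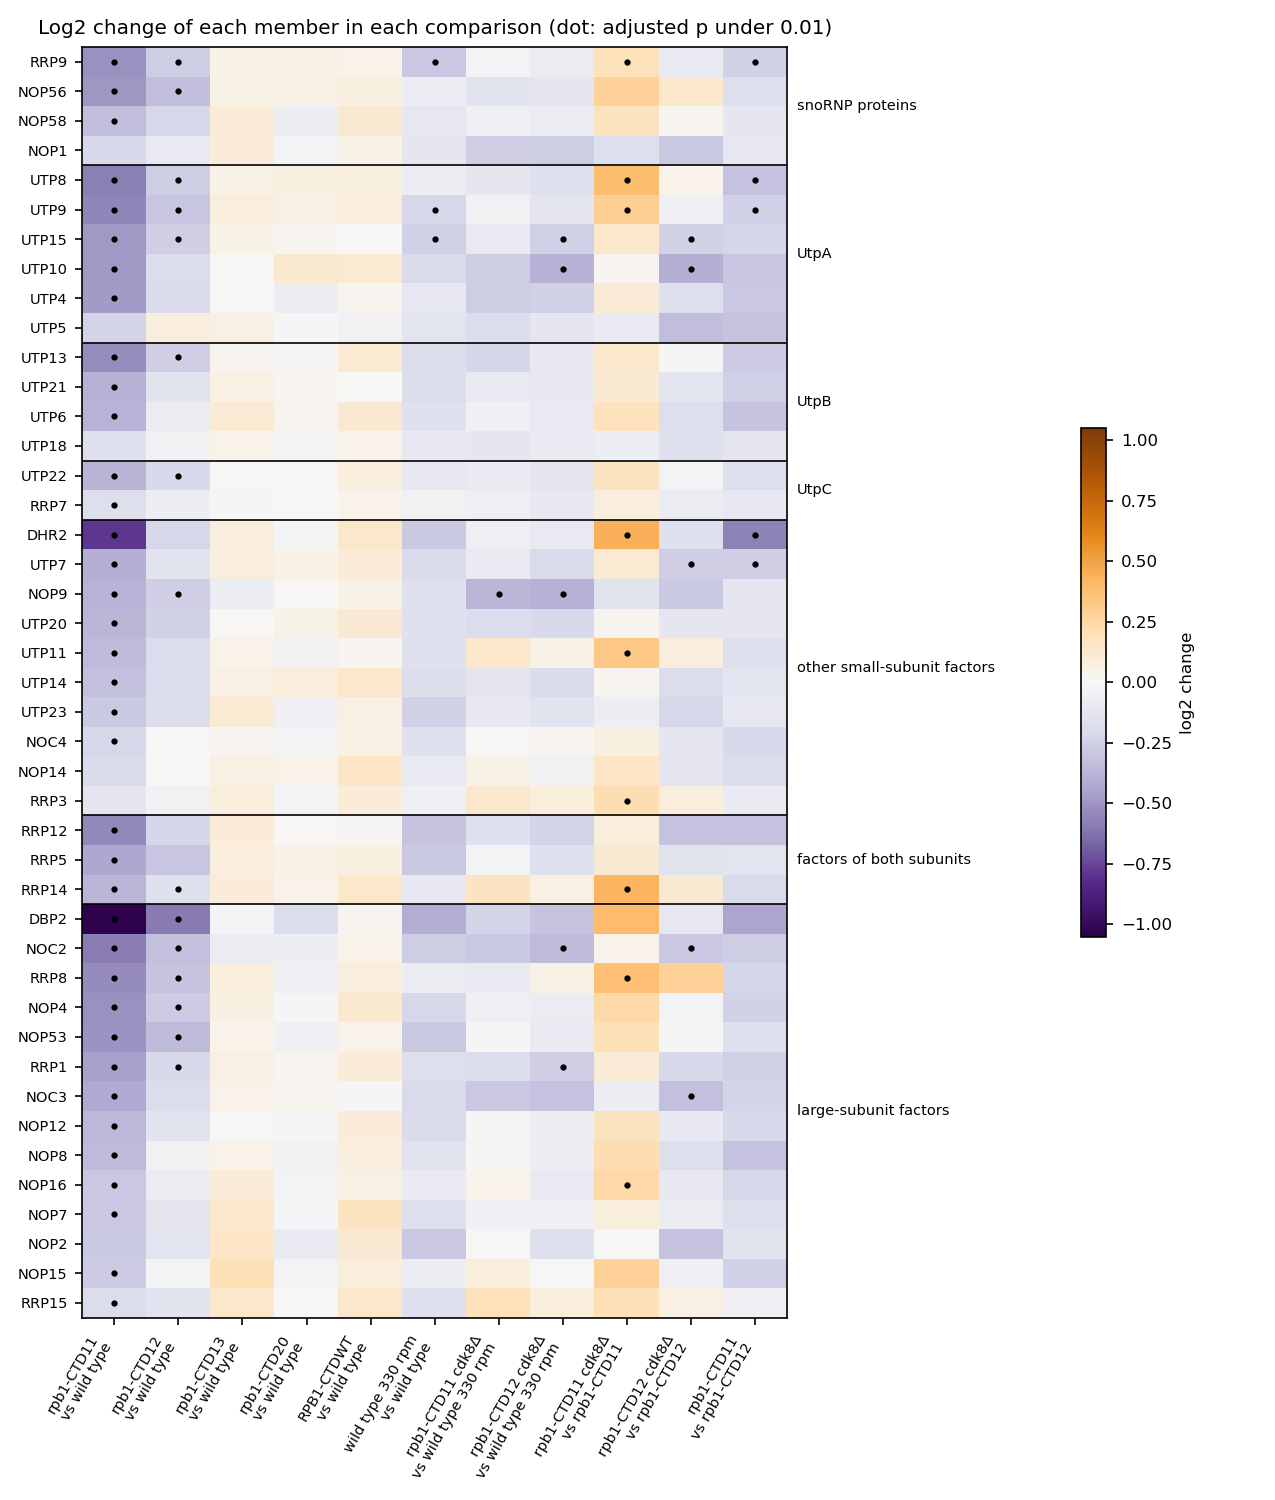
Log2 change of each of the 43 members (rows, grouped by role) in 11 comparisons (columns), with a dot where the adjusted p was under 0.01. The first column, rpb1-CTD11 against wild type, has dots in 37 rows, and the columns of rpb1-CTD13, rpb1-CTD20 and RPB1-CTDWT have none.

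With 12 repeats fewer members passed. In *rpb1-CTD12* 15 of 43 were lower and none was higher than in wild type, where 17.4% of all gene probes were lower and 18.6% higher. The median change was -0.19 (0.00 over all gene probes) and the range -0.59 to 0.07, with *UTP5* the single member above 0. None was called. In 25 members both arrays lay below all 8 wild type arrays (24.8% of all gene probes). The count depended on having both arrays: with 1 of them left out, 5 members (without a, 9.97% of all gene probes lower) or 3 members (without b, 8.89%) passed, while the medians were -0.20 and -0.11. Fitted without the dye term, 2 members passed, and no share of all gene probes is given for that fit. Scaling on the spiked-in controls gave a median of -0.29 with none past the test in limma (8 lower at an unadjusted p under 0.05, 0.564% of all gene probes lower).

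*DBP2* again changed most. It measured -0.14 and -0.24 in *rpb1-CTD12*, against 0.22, 0.39 and 0.64 in wild type, a change of -0.59 (SE 0.134, adjusted p = 0.00131 in limma). *NOP53*, which links the large-subunit precursor to the exosome, measured 0.01 and -0.33, against 0.05, 0.17 and 0.31 in wild type, a change of -0.35 (SE 0.0793). Its a array lay just below the lowest wild type array and its b array far below. *NOP56*, a core protein of the methylation guide snoRNPs, measured -0.35 and -0.24, against -0.07, 0.01 and 0.20 in wild type, a change of -0.33 (SE 0.0773), and *NOC2* measured -0.17 and -0.07, against 0.10, 0.19 and 0.28 in wild type, a change of -0.32 (SE 0.0674). Both genes were below all wild type arrays on both arrays. By role, 2 of 4 snoRNP proteins, 3 of 6 UtpA, 1 of 4 UtpB and 1 of 2 UtpC subunits fell, as did 1 of 10 other small-subunit factors, 1 of 3 factors of both subunits and 6 of 14 large-subunit factors. The 11 that fell beside these 4 genes were *RRP8* (-0.31), *UTP9* (-0.30), *NOP4* (-0.27), *RRP9* (-0.27), *UTP8* (-0.26), *UTP15* (-0.26), *UTP13* (-0.26), *NOP9* (-0.26), *RRP1* (-0.21), *UTP22* (-0.21) and *RRP14* (-0.16). *DHR2* changed by -0.22 here and did not pass (adjusted p = 0.0430 in limma).

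**Figure D3:**
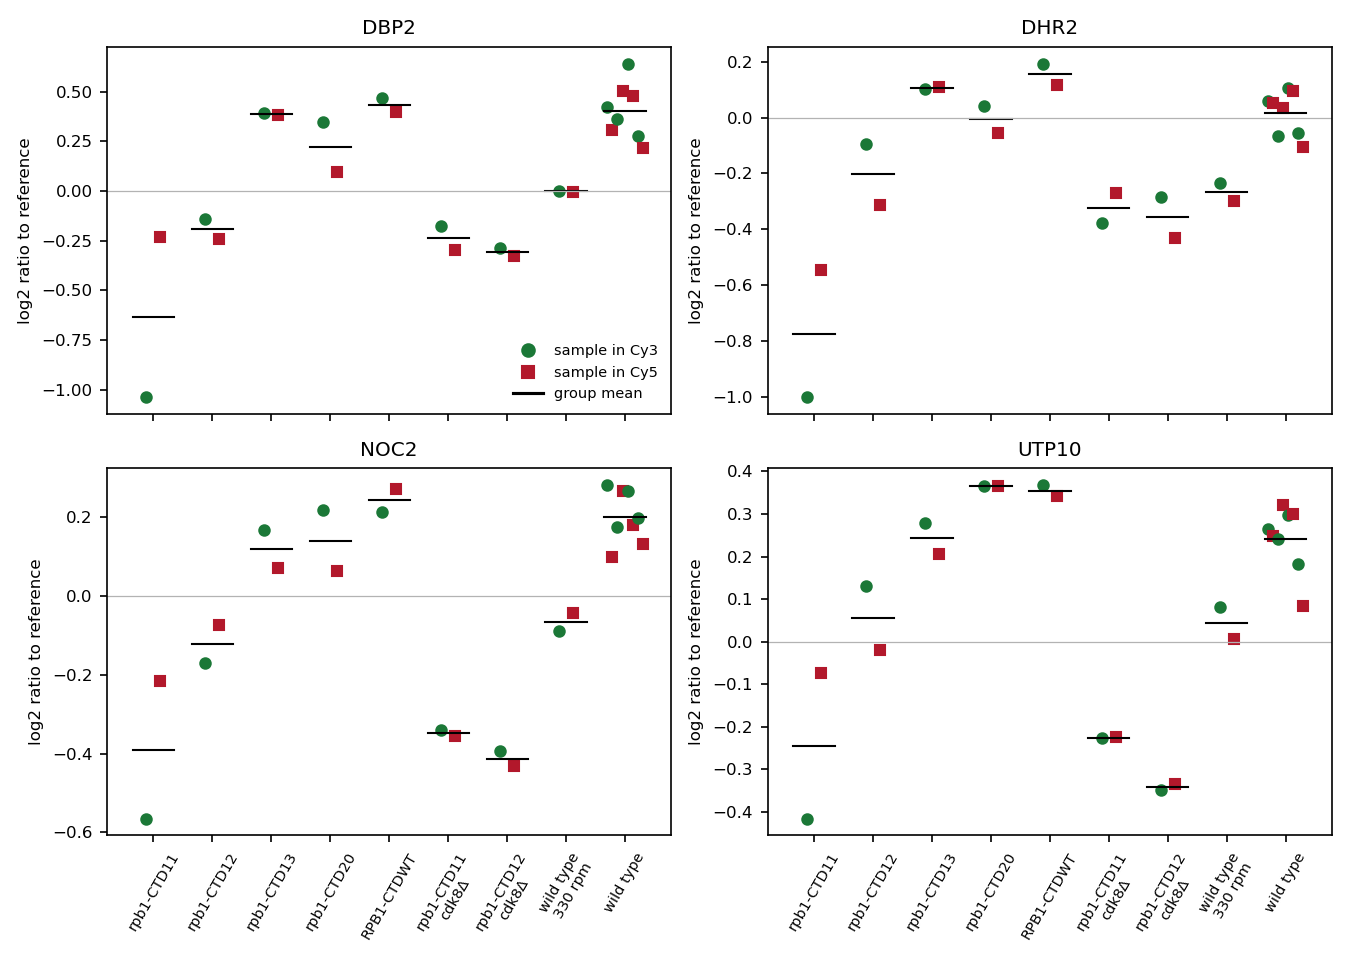
Log2 ratio to the common reference of DBP2, DHR2, NOC2 and UTP10 on each array (symbols, by dye) with the mean of each group (line). DBP2 was at -1.04 and -0.23 in rpb1-CTD11, against 0.22 to 0.64 in wild type, and UTP10 was at -0.35 and -0.33 in rpb1-CTD12 cdk8Δ, against 0.08 and 0.01 in wild type 330 rpm.

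Against wild type, no member passed with 13 or more repeats. *DBP2* measured 0.39 and 0.38 in *rpb1-CTD13*, 0.35 and 0.10 in *rpb1-CTD20* and 0.47 and 0.40 in *RPB1-CTDWT*, against 0.22, 0.39 and 0.64 in wild type, so that 1 array of *rpb1-CTD20* lay below wild type and the 5 others within it. In *rpb1-CTD13*, the changes of the 43 members ran from -0.08 to 0.21 with a median of 0.06, none passed in limma (3 at an unadjusted p under 0.05), and 4.34% of all gene probes were lower and 1.52% higher than in wild type. In *rpb1-CTD20* they ran from -0.18 (*DBP2*) to 0.12 (*UTP10*) with a median of -0.01, none passed in limma (0 at an unadjusted p under 0.05), and 0.204% of all gene probes were lower and 0.172% higher. In *RPB1-CTDWT*, which carries the marker without a truncation, they ran from -0.04 to 0.18 (*NOP7*) with a median of 0.08, none passed in limma (4 at an unadjusted p under 0.05), and 0.125% of all gene probes were lower and 0.0157% higher. Of the members, 38 in *rpb1-CTD13* and 40 in *RPB1-CTDWT* had values above 0, and for *rpb1-CTD13* the sign of the median turned with *RPB1-CTDWT* as the control (-0.02) and with scaling on the spiked-in controls (-0.57, where all gene probes had -0.587). With that scaling 30 members were lower in *rpb1-CTD13*, as were 75.2% of all gene probes.

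Set directly against *rpb1-CTD12*, the loss of 1 more repeat gave negative values in all 43 members, from -0.57 to -0.04 with a median of -0.22 (0.00 over all gene probes). Of these, 5 were lower and none was higher, where 3.57% of all gene probes were lower and 4.20% higher. They were *DHR2*, *UTP8*, *UTP7*, *UTP9* and *RRP9*. *DHR2* measured -1.003 and -0.55 in *rpb1-CTD11*, against -0.09 and -0.31 in *rpb1-CTD12*, a change of -0.57 (SE 0.109, adjusted p = 0.00138 in limma). *UTP8* measured -0.71 and -0.42, against -0.24 and -0.26, and *UTP9*, another UtpA subunit, measured -0.53 and -0.40, against -0.19 and -0.24. *UTP7*, a processome factor, measured -0.45 and -0.23, against -0.05 and -0.12. The arrays of these 4 genes did not overlap between the strains. They were named for changing the same way on both arrays, and the share of all gene probes separated like this was not counted. The count changed with the arrays. Without the a array of *rpb1-CTD11* no member passed in limma (5 lower at an unadjusted p under 0.05; 3.38% of all gene probes lower), the median was -0.04 and 14 of 43 members had values above 0, while without the b array 33 were lower, with a median of -0.39 (5.53% of all gene probes lower). Leaving out either array of *rpb1-CTD12* also lowered the count.

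The 2 wild type controls also differed in these genes. All 43 members had negative values in wild type 330 rpm against wild type, from -0.40 to -0.04 with a median of -0.16 (0.00 over all gene probes), or 0.16 when scaled on the spiked-in controls (0.309 over all gene probes; none passed in limma, and 0 at an unadjusted p under 0.05), and both arrays lay below all 8 wild type arrays in 26 members (13.7% of all gene probes). The test passed 3 of them as lower and none as higher, where 2.00% of all gene probes were lower and 2.46% higher. *RRP9* measured -0.15 and -0.17 in wild type 330 rpm, against 0.08, 0.12 and 0.20 in wild type, a change of -0.29 (SE 0.0427, adjusted p = 0.000386 in limma). *UTP15*, a UtpA subunit, measured -0.16 and -0.06, against 0.04, 0.15 and 0.23, a change of -0.25 (SE 0.0554), and *UTP9* measured -0.12 and -0.14, against 0.03, 0.09 and 0.15, a change of -0.22 (SE 0.0381). None of these 3 overlapped with wild type, but none of them passed the test with either array of wild type 330 rpm left out. The general stress genes had medians of 0.42 and 0.44 on the wild type 330 rpm arrays, and on the wild type arrays they were at 0.34 and 0.42 in those labelled k3 and at -0.03 to 0.14 in the 6 others. The members had medians of 0.01 and -0.04 on the k3 arrays, the lowest of the wild type arrays, and 0.05 to 0.14 on the 6 others. The part of this difference in the results was not tested.

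The counts of the truncations also changed with the control. Against wild type 330 rpm, 16 members were lower in *rpb1-CTD11*, with a median of -0.22 (16.8% of all gene probes lower), and none passed in *rpb1-CTD12*, with a median of 0.01 (3 lower at an unadjusted p under 0.05; 9.30% of all gene probes lower, limma). In *rpb1-CTD13* 5 members were higher than in wild type 330 rpm (*RRP9*, *UTP15*, *UTP9*, *RRP15* and *UTP7*), with a median of 0.20 (3.73% of all gene probes higher), and in *rpb1-CTD20* 2 were higher (*RRP9* and *UTP9*), with a median of 0.17 (1.28% of all gene probes higher). With *RPB1-CTDWT* as the control the medians were -0.47 with 11 repeats and -0.27 with 12.

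Few members passed the test between the double mutants and wild type 330 rpm. In *rpb1-CTD11 cdk8Δ* 1 member was lower and none higher, with a median of -0.08 (0.01 over all gene probes) and a range of -0.37 to 0.19, where 13.2% of all gene probes were lower and 15.2% higher. In *rpb1-CTD12 cdk8Δ* 5 members were lower and none higher, with a median of -0.10 (0.01 over all gene probes) and a range of -0.39 to 0.09, where 11.2% of all gene probes were lower and 15.6% higher. These 5 are 11.6% of the members, a share near that of all gene probes. *NOP9*, which encodes an RNA-binding protein of the small-subunit pathway, passed in both: it measured -0.48 and -0.50 in *rpb1-CTD11 cdk8Δ* and -0.47 and -0.55 in *rpb1-CTD12 cdk8Δ*, against -0.15 and -0.11 in wild type 330 rpm. The changes were -0.37 and -0.39 (SE 0.0944 each). In *rpb1-CTD12 cdk8Δ* the others that fell were *UTP10*, *NOC2*, *RRP1* and *UTP15*.

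*UTP10*, which encodes a large UtpA subunit, measured -0.35 and -0.33 in *rpb1-CTD12 cdk8Δ*, against 0.08 and 0.01 in wild type 330 rpm, a change of -0.39 (SE 0.0853, adjusted p = 0.00145 in limma). *NOC2* measured -0.39 and -0.43, against -0.09 and -0.04, and *RRP1*, a large-subunit factor, measured -0.48 and -0.52, against -0.23 and -0.26. Arrays of the groups did not overlap in any of them, and the share of all gene probes separated like this was not counted. Leaving out array a or array b of *rpb1-CTD11 cdk8Δ* left no member past the test in limma (7 and 5 lower at an unadjusted p under 0.05; 8.31% and 9.55% of all gene probes lower). Leaving out array a or array b of *rpb1-CTD12 cdk8Δ* likewise left none (11 and 7 lower at an unadjusted p under 0.05; 7.65% and 7.78% of all gene probes lower). With either array of wild type 330 rpm left out, fewer members passed in both double mutants. Against the larger wild type group the counts were 26 of 43 lower in *rpb1-CTD11 cdk8Δ*, with a median of -0.27 (21.9% of all gene probes lower), and 29 of 43 in *rpb1-CTD12 cdk8Δ*, with a median of -0.28 (22.5% of all gene probes lower). Stress genes had medians of 2.05 to 2.32 on the 4 double mutant arrays, and whether this bears on the members was not tested.

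With 11 repeats, 9 of the 43 members rose on loss of *CDK8* and none fell, among them *DHR2*, *RRP14*, *UTP8* and *RRP8*. These 9 are 20.9% of the members in *rpb1-CTD11 cdk8Δ* against *rpb1-CTD11*, a share near that of all gene probes, of which 19.7% were higher and 18.9% lower. Values were above 0 in 36 of 43 members and in 3298 of 6388 gene probes, and the median was 0.14 (0.01 over all gene probes) in a range of -0.16 to 0.45. Wild type 330 rpm, the control of the double mutant, lay at a median of -0.16 against wild type, the control of the single mutant. Each against its own control, the members had a median of -0.08 in *rpb1-CTD11 cdk8Δ* and -0.38 in *rpb1-CTD11*. What part the controls had in the rise was not tested. *DHR2* measured -0.38 and -0.27 in *rpb1-CTD11 cdk8Δ*, against -1.003 and -0.55 in *rpb1-CTD11*, a change of 0.45 (SE 0.109, adjusted p = 0.00203 in limma). *RRP14*, a factor of both subunits, measured -0.0027 and -0.0216, against -0.55 and -0.32, a change of 0.43 (SE 0.0586, adjusted p = 7.46e-06 in limma). Both genes were higher on both double mutant arrays than on either array of the single mutant. The same held for *UTP8*, at -0.15 and -0.20 against -0.71 and -0.42, and for *RRP8*, at -0.21 and -0.28 against -0.85 and -0.38. The share of all gene probes separated like this was not counted. The 5 other members that rose were *UTP11* (0.33), *UTP9* (0.30), *NOP16* (0.24), *RRP3* (0.21) and *RRP9* (0.19).

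This result also changed with the arrays of *rpb1-CTD11*. Without the a array the median was -0.02 and 26 of 43 values were below 0, and 3 members were higher (*RRP14*, *UTP8* and *UTP9*) and 3 lower (*NOP9*, *NOC3* and *UTP23*), where 16.9% of all gene probes were higher and 16.3% lower. Without the b array 26 members were higher and none lower, with a median of 0.33, where 17.5% of all gene probes were higher and 15.9% lower. The rises of *RRP14* (0.30 without a, 0.55 without b), *UTP8* (0.24 and 0.55) and *UTP9* (0.23 and 0.37) passed with either of these arrays left out. The members had medians of -0.18 and -0.20 on the *rpb1-CTD11 cdk8Δ* arrays. These lay between the medians on the a array (-0.46) and the b array (-0.14) of *rpb1-CTD11*. Scaled on the spiked-in controls, none passed in limma (14 higher at an unadjusted p under 0.05, 4.04% of all gene probes higher).

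With 12 repeats, 5 of the 43 members fell on loss of *CDK8* and none rose: *UTP10*, *NOC3*, *NOC2*, *UTP7* and *UTP15*. These 5 are 11.6% of the members in *rpb1-CTD12 cdk8Δ* against *rpb1-CTD12*, a smaller share than the 14.9% of all gene probes that were lower, while 17.5% were higher. Values were below 0 in 35 of 43 members and in 3139 of 6388 gene probes, with a median of -0.12 (0.00 over all gene probes) and a range of -0.40 to 0.28. Scaled on the spiked-in controls, the median was 0.21, where all gene probes had 0.281, and none passed in limma (1 higher at an unadjusted p under 0.05). *UTP10* measured -0.35 and -0.33 in *rpb1-CTD12 cdk8Δ*, against 0.13 and -0.02 in *rpb1-CTD12*, a change of -0.40 (SE 0.0853, adjusted p = 0.000975 in limma). *NOC2* measured -0.39 and -0.43, against -0.17 and -0.07, and its partner *NOC3* measured -0.40 and -0.42, against -0.10 and -0.07. *UTP7* measured -0.33 and -0.36, against -0.05 and -0.12, and *UTP15* had a change of -0.24. The groups of *UTP10*, *NOC2*, *NOC3* and *UTP7* did not overlap, and the share of all gene probes separated like this was not counted. *RRP8* had the highest value, 0.28, which did not pass (adjusted p = 0.0294 in limma). With any 1 of the 4 arrays of these strains left out, fewer members passed. Wild type 330 rpm, the control of the double mutant, lay at a median of -0.16 against wild type, the control of the single mutant. Each against its own control, the members had a median of -0.10 in *rpb1-CTD12 cdk8Δ* and -0.19 in *rpb1-CTD12*. What part the controls had in the fall was not tested.

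The difference between the 2 responses was positive in all 43 members, from 0.09 to 0.61 with a median of 0.26 (-0.01 over all gene probes). *UTP9* alone passed the test of this difference: loss of *CDK8* changed it by 0.30 with 11 repeats and by -0.04 with 12, a difference of 0.34 (SE 0.0681, adjusted p = 0.00538 in limma). No member passed in the other direction, and 0.642% of all gene probes were higher and 1.64% lower. With no a array of *rpb1-CTD11* none passed in limma (9 higher at an unadjusted p under 0.05; 1.00% of all gene probes higher), with a median of 0.09 and 13 members below 0, and without the b array 20 passed (2.65% of all gene probes higher), with a median of 0.43. With any 1 of the 6 other arrays left out, *UTP9* did not pass either. The 4 groups share no array, and over the 43 members the responses to loss of *CDK8* with 11 and 12 repeats had a Pearson correlation of 0.712, against 0.865 over all 6388 gene probes; genes are not independent replicates, and this describes the profiles.

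**Figure D4:**
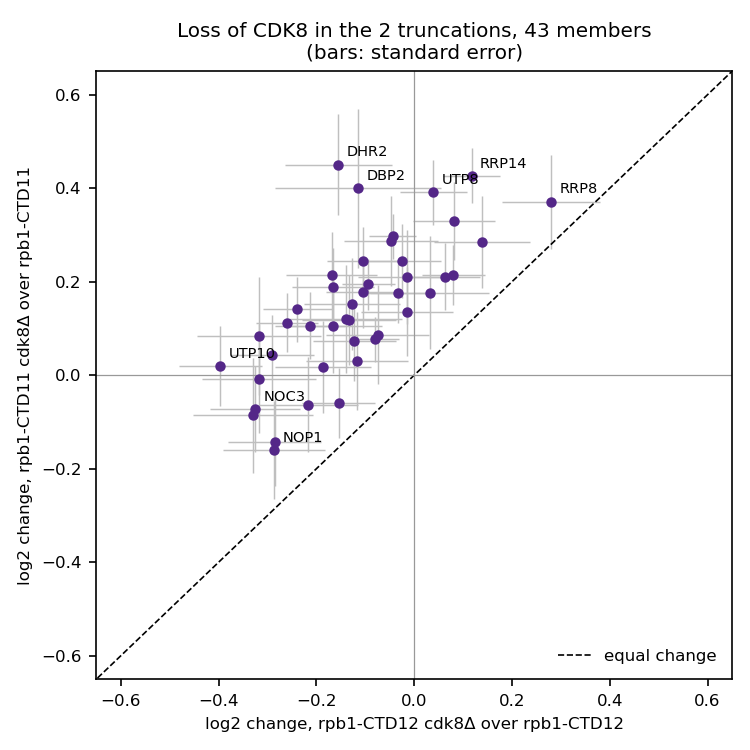
Log2 change of each of the 43 members on loss of CDK8, with 11 repeats (vertical axis) and with 12 repeats (horizontal axis), with standard errors. All points lie above the line of equal change, DHR2 at 0.45 with 11 repeats and -0.16 with 12, and RRP8 at 0.37 and 0.28.

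Other ribosome assembly factors were lower beside the members in *rpb1-CTD11*, where 24.9% of all gene probes were lower. Of 39 other small-subunit factors 31 were lower and none higher, with a median of -0.34, and of 55 other large-subunit factors 40 were lower and none higher, with a median of -0.35. Of 5 other snoRNP core proteins 4 fell, among them *CBF5*, the pseudouridine synthase (-0.50), and *NOP10* (-0.38). RNA polymerase I, which transcribes the precursor itself, had 7 of 17 subunits and factors lower, with the largest changes in *RPA34* (-0.53) and *RPA43* (-0.51). RNA polymerase III had 5 of 10 and the exosome 6 of 12 lower, with medians of -0.20 and -0.16. Without the a array of *rpb1-CTD11* these medians were -0.10 and -0.05. Among 128 probes of cytosolic ribosomal proteins 35 were lower and 1 higher, with a median of -0.15; their 27.3% lower was near the share of all gene probes. General stress genes had 9 of 27 higher and 1 lower, with a median of 0.35. When the a array of *rpb1-CTD11* was left out, the medians were -0.15 for other small-subunit factors, -0.16 for other large-subunit factors and -0.18 for other snoRNP core proteins. They were -0.10 for RNA polymerase I and -0.05 for the ribosomal proteins. Fewer genes of each of these lists, of RNA polymerase III and of the exosome then passed as lower. RNA polymerase I, the exosome and the ribosomal proteins lay below the share of all gene probes. The general stress genes then had a median of -0.17. Their part in the members' change was not tested.

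In *rpb1-CTD12* fewer were lower: 6 of 39 other small-subunit factors, 10 of 55 other large-subunit factors, 2 of 5 other snoRNP core proteins, 3 of 17 genes of RNA polymerase I, 3 of 10 of RNA polymerase III, 1 of 12 of the exosome and 18 of 128 ribosomal protein probes. All gene probes had 17.4% lower, and most of these counts lay near or below that share, with the snoRNP core proteins (40%) and RNA polymerase III (30%) above it. In the same strain 21 of 27 general stress genes were higher, with a median of 0.63, and their part in the members' change was not tested. Among 9 regulators of ribosome biogenesis or ribosomal protein genes 5 were lower and 1 higher in *rpb1-CTD11*, and 2 lower and 1 higher in *rpb1-CTD12*. The median of the 9 was -0.22 in *rpb1-CTD11*, or -0.21 without its a array. *RAP1*, whose product binds ribosomal protein promoters, changed by -0.49 in *rpb1-CTD11* and -0.38 in *rpb1-CTD12*, and both passed. *DOT6*, a repressor of ribosome biogenesis genes, changed by -0.39 and -0.26, and both passed. *STB3*, another repressor, rose by 0.29 and 0.20. *TOD6*, the paralog of *DOT6*, fell by 0.50 in *rpb1-CTD11* and had 0.20 in *rpb1-CTD12*, which did not pass. *SFP1*, an activator, had -0.05 and -0.02 and did not pass in either. On the b array alone, *RAP1* (-0.43), *DOT6* (-0.44) and *STB3* (0.32) still passed, and *TOD6* had -0.32 and did not.

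**Figure D5:**
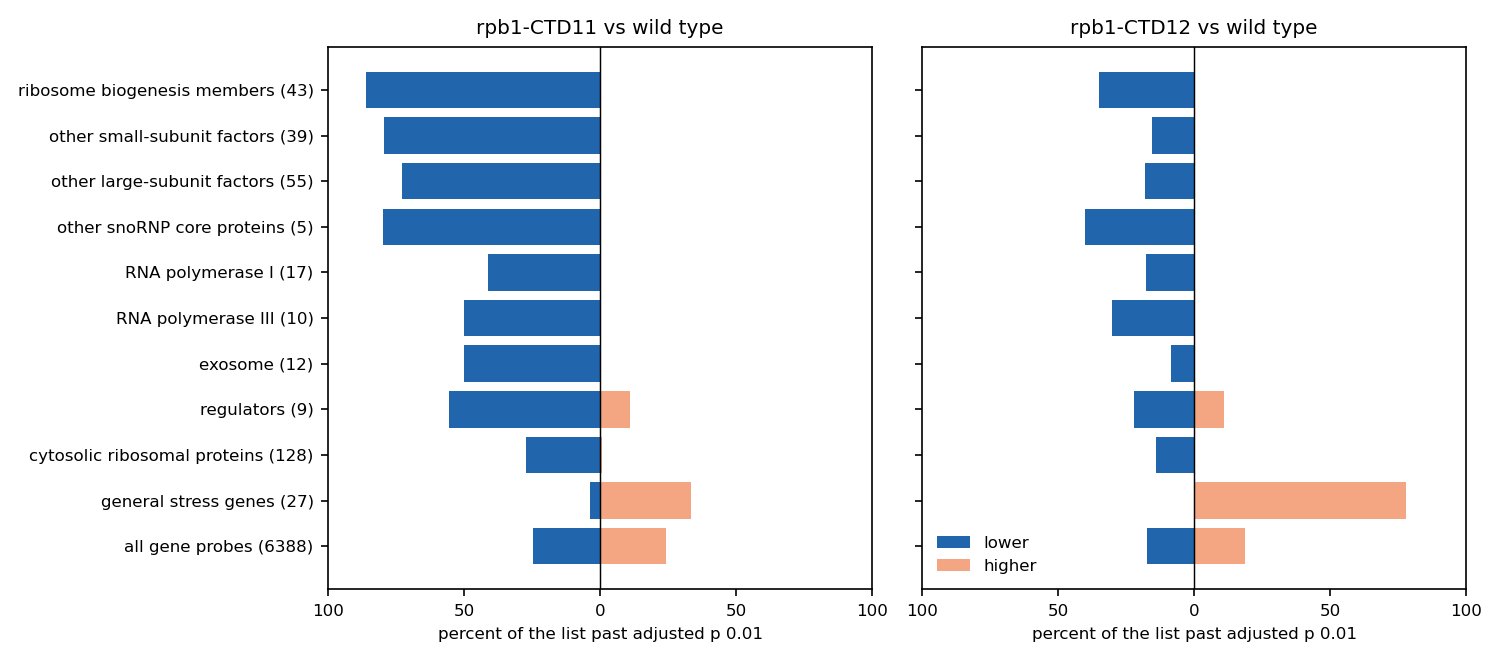
Percent of each list that was lower (left of 0) or higher (right of 0) at an adjusted p under 0.01, in rpb1-CTD11 and in rpb1-CTD12 against wild type, with the number of probes of the list in brackets. The members had 37 of 43 lower in rpb1-CTD11 and 15 of 43 in rpb1-CTD12, while all gene probes had 24.9% and 17.4% lower.

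Some members lie beside another ribosome biogenesis gene on the chromosome, as the RefSeq annotation of assembly R64 orders them. There were 6 such pairs of neighbours, 1 of them made of 2 members, *RRP15* and *NOC4*, which both fell in *rpb1-CTD11* (-0.18 and -0.22). *UTP9* fell with *RIX1* (-0.55 and -0.54), which encodes a large-subunit factor, and *NOC3* fell with *CMS1* (-0.42 and -0.49). In the 3 other pairs the neighbours differed in passing: *UTP13* fell (-0.53) and *RSA3* did not pass (-0.17), *DBP2* fell (-1.04) and *RPC19*, a subunit shared by RNA polymerases I and III, did not pass (-0.18), and *RRP3* did not pass (-0.12) while *SSF1* fell (-0.41). With that strain's a array left out, *UTP9* (-0.48), *RIX1* (-0.38), *CMS1* (-0.33), *UTP13* and *DBP2* still passed, *NOC3* (-0.19), *RRP15*, *NOC4* and *SSF1* (-0.26) did not, and *RPC19* was at 0.07.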

How the data were processed

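Scanner files as deposited give spot and local background intensity for both channels, before any normalization. The authors' series table gives a log2 ratio for each spot, made with print-tip loess (span 0.4), no background subtraction and a gene-specific dye bias correction, with limma 2.12.0 named in the processing notes. Its columns correlated with sample over reference from the scanner signals on every array, so its direction is that; it was used as an alternative. The authors' table of log2 ratios and p-values per strain was not used.

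From the intensities, background was corrected by normexp (offset 50), arrays were normalized by global loess (span 0.3, control spots at weight 0), and duplicate spots were averaged. All 24 arrays were fitted in limma 3.58.1 (R 4.3.3) with 9 groups and a dye term, since a and b mark the dye orientation: differences between a and b correlated by 0.621 to 0.927 between groups (28 pairs). p-values rest on the spread within groups, pooled over all 9 groups. Those of *rpb1-CTD11*, whose arrays lay furthest apart, therefore do not measure the spread of that strain alone. Above background means over percentile 99 of the empty spots; the number of arrays limits the precision. The dyes follow the sample labels, since the design text gives another order. The code was tested on simulated data.

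Members, roles and lists were chosen with earlier results of these data known. Named with array values are, per comparison, up to 4 members with the largest change in each direction past the test and the same way on both arrays, and per role the largest and smallest change in *rpb1-CTD11*; further members, regulators and neighbours were named after their values were seen. *RRP36* and *NOP19* were not matched on the platform. All 43 members matched RefSeq symbols, and no sequences are shown. Alternatives were other normalizations, controls, filters and blocks, and each array left out.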

Additional observations from a re-analysis of the deposited data

Results flagged for a closer look

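In 2 of the 43 members 1 of the 8 wild type arrays stood apart from the other 7 by a gap, relative to the range, above Dixon's 95% critical value, which chance passes in about 1 in 20 such groups. *RRP7* measured 0.083 on wild type k2-a, against 0.0042 on the next array, and *RRP14* measured -0.179 on wild type k2-b, against -0.0998 on the next. The response of *UTP9* to loss of *CDK8* differed between 11 and 12 repeats by 0.34 on the log2 scale, by the test of that difference. Without the a array of *rpb1-CTD11* the difference was 0.27 (adjusted p = 0.0249 in limma).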

How the results depend on the processing

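Counts below are members at an adjusted p under 0.01 in limma, in the order *rpb1-CTD11*, *rpb1-CTD12* and wild type 330 rpm against wild type (37, 15 and 3), *rpb1-CTD11 cdk8Δ* and *rpb1-CTD12 cdk8Δ* against wild type 330 rpm (1 and 5), loss of *CDK8* with 11 and with 12 repeats (9 and 5), *rpb1-CTD11* against *rpb1-CTD12* (5), and the difference between the responses (1); a count within 1.5 times is left out. No share of all gene probes was counted for the settings of this paragraph, so a changed count cannot be told from a change over all genes. Without background correction and with dim probes filtered out, every count and median stayed within its limit. Print-tip loess gave 2 and 3 for the double mutants, 2 for 11 against 12 repeats and 0 for the difference. The deposited series table gave 2 for *rpb1-CTD11 cdk8Δ*, 2 for 11 against 12 repeats and 0 for the difference. Median centring gave 9 for *rpb1-CTD12*, 1 for wild type 330 rpm, 0 and 2 for the double mutants, 5 and 2 for loss of *CDK8*, 1 for 11 against 12 repeats and 0 for the difference. Without the replicate block, which is the dye term, the counts were 16, 2, 0, 0, 1, 3, 1, 1 and 0, so the block changed each of them. Wild type labels as a random block gave 3 for *rpb1-CTD12 cdk8Δ* and 3 for loss of *CDK8* with 12 repeats.

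Scaling on the spiked-in controls moved the median of all gene probes, by -0.587 in *rpb1-CTD13*, -0.319 in *rpb1-CTD20*, 0.309 in wild type 330 rpm, and 0.196 and 0.281 for loss of *CDK8* with 11 and 12 repeats, against at most 0.0407 under the other settings. The members' medians became -0.46, -0.29, -0.57 and -0.35 with 11, 12, 13 and 20 repeats, 0.16 in wild type 330 rpm, -0.22 and -0.20 in the double mutants, and 0.42 and 0.21 for loss of *CDK8*. The counts were 2 for *rpb1-CTD11*, 30 for *rpb1-CTD13* and 0 for *rpb1-CTD12*, wild type 330 rpm, the double mutants, loss of *CDK8*, 11 against 12 repeats and the difference. Relative to all gene probes the members then lay at 0.019 in *rpb1-CTD13*, -0.030 in *rpb1-CTD20*, -0.147 in wild type 330 rpm and -0.070 for loss of *CDK8* with 12 repeats. *RRP9* (0.0512), *UTP15* (0.0891) and *UTP9* (0.11) turned their sign in wild type 330 rpm, as did *NOC2* (0.0503) and *UTP7* (0.0775) on loss of *CDK8* with 12 repeats.

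With wild type 330 rpm as the control, the medians with 11, 12, 13 and 20 repeats were -0.22, 0.0079, 0.205 and 0.17, and 16, 0, 5 and 2 members passed. With *RPB1-CTDWT* as the control the medians with 11, 12 and 13 repeats were -0.47, -0.27 and -0.0184. With wild type as the control, the double mutants had medians of -0.27 and -0.28, with 26 and 29 members. The causes were not tested.

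With single arrays left out, medians and counts ranged from -0.57 to -0.19 and 17 to 42 for *rpb1-CTD11*, -0.20 to -0.11 and 3 to 18 for *rpb1-CTD12*, 0.05 to 0.07 for *rpb1-CTD13*, -0.02 to 0.03 for *rpb1-CTD20*, 0.06 to 0.09 for *RPB1-CTDWT*, -0.18 to -0.15 and 0 to 4 for wild type 330 rpm, -0.10 to -0.06 and 0 for *rpb1-CTD11 cdk8Δ*, -0.16 to -0.08 and 0 to 1 for *rpb1-CTD12 cdk8Δ*, -0.0233 to 0.33 and 4 to 26 for loss of *CDK8* with 11 repeats, -0.16 to -0.08 and 0 to 2 with 12, -0.39 to -0.0401 and 0 to 33 for 11 against 12 repeats, and 0.0878 to 0.43 and 0 to 20 for the difference. A lone array left in a group is assumed to vary like the other groups. With 2 arrays a group, a p that misses the threshold does not show that levels were equal.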
